A study of Mus musculus with 48 samples.

Results

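Synaptosome input RNA was compared between 3-week-old (3w) and 5-month-old (5m) mice. The comparison rests on 8 of the 48 libraries of the sucrose cushion experiment, chosen by their labels: the synaptosome (SYN) fraction before the cushion, from 4 mice at 3w (mice 187 to 190) and 4 at 5m (mice 191 to 194). All mice were wild-type C57BL/6JRj males with no treatment named, and the tissue was the cerebral cortex. The sample labels give 6 months for the older group, whereas the preparation protocol and the study's methods give 5 months, the name used here. The SYN fraction is the material at the interface of 1M and 1.18M sucrose after a density gradient, with each library from 1 mouse. Total homogenate (TH) input of the same 8 mice and SYN input of 4 mice at 18 months (18m, mice 195 to 198) are given beside it where they bear on a value.

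Synaptosomes are pinched-off presynaptic terminals that reseal during homogenization, often with a piece of the postsynaptic membrane attached. They carry messenger RNAs of synaptic and mitochondrial proteins that neurons send into axons and dendrites. Density fractions of this kind are also known to hold membrane pieces of glia, among them myelin and fine astrocyte processes, whose RNA is then sequenced together with that of the terminals. Between weaning and adulthood, cortical oligodendrocytes pass from active myelination to maintenance, synapses are pruned and the perineuronal matrix matures. In bulk RNA of such a fraction, fewer particles of one cell type and less of a transcript in each particle cannot be told apart.

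Counted reads per library ranged from 1780267 to 4519629, and the 2 shallowest libraries, of mice 189 and 190, were both at 3w. The chi-square per degree of freedom between libraries of like age was 2.07 to 6.76 in 12 pairs, above the 1 that counting error gives, and Pearson's r of log2 CPM (across genes, which are not independent replicates) was between 0.953 and 0.982. Markers of excitatory neurons (among them Slc17a7, Camk2a and Neurod6) summed to 8457 to 9660 CPM in the 8 SYN libraries and to 3234 to 4300 CPM in TH input. Those of inhibitory neurons (Gad1, Gad2, Slc32a1, Pvalb, Sst) did not share this, at 438 to 734 CPM in SYN and 505 to 585 CPM in TH. Nuclear long noncoding RNAs (Malat1, Neat1, Meg3, Miat, Rian) summed to 1425 to 2831 CPM in SYN and to 21138 to 22821 CPM in TH. Endothelial markers (Cldn5, Flt1, Pecam1, Cdh5) summed to 3.68 to 11.0 CPM in SYN and 135.5 to 233 CPM in TH, and red blood cell markers to 18.0 to 48.7 CPM and 175 to 631 CPM. Astrocyte markers (Gfap, Aqp4, Slc1a2, Slc1a3, Aldh1l1, Gja1) summed in SYN to 11767 to 13366 CPM at 3w and 10281 to 10869.7 CPM at 5m, and in TH to 5445 to 5984 CPM and 4229.8 to 4876 CPM. In both fractions the sum was lower in every 5m library than in every 3w library. A wider list of 25 astrocyte genes did not share this in SYN. Its median log2 fold change was -0.0016, with 14 of the 25 negative. Its sum was 22958 to 25970 CPM at 3w and 23349 to 24740 CPM at 5m. Of the 6 astrocyte markers, 1 (Aqp4, lower) was called in SYN, and no marker was at 0 in all 8 SYN libraries.

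The expression of 418 of 12975 genes tested (3.22%) differed between 5m and 3w in edgeR's quasi-likelihood test at a Benjamini-Hochberg adjusted p under 0.05. At 5m, 166 genes were higher (1.28% of those tested) and 252 were lower (1.94%). Most of the differences were below 2-fold: 107 of the 418 changed at least 2-fold, 34 upwards and 73 downwards, and the median size was 0.74 on the log2 scale. No overlap between the libraries of the ages was found for 412 of the 418, against 1635 of all genes tested (12.6%; 6.1% higher and 6.5% lower). Protein-coding genes made up 407 of the 418. The median log2 fold change of all genes tested was -0.00037. Leading genes were taken from called genes with no overlap between the ages. They also had a mean count of at least 50 in the age group where they were higher, but not necessarily in the other. The 12 with the largest falls included Prom1, Enpp6, Gsn, Rnf122, Ugt8a, Mog, Tspan2, Gpr17, Mal, Adamts4 and Col1a1. The 12 with the largest rises were Prelp, Wnt10a, Pcdhgb7, Serpina3n, C4b, Il33, Esyt1, Bok, Cbx7, Jade2, Cables1 and Spint2. The 12 lower genes ranged from -2.55 to -1.69 and the 12 higher genes from 0.98 to 1.82 on the log2 scale. Wherever separate ranges are given for these leading genes, they follow from this choice and add no support. For other called genes separate ranges add little to the call, as 412 of the 418 had them. With 1 mouse left out the count of called genes was between 224 (without mouse 188) and 299 (without mouse 187), and without the libraries of mice 189 and 190 together, an alternative chosen after seeing the data, it was 152, of which 36 were higher and 116 lower; 148 of the 152 were among the 418. With all libraries thinned to the smallest of the 8, the count was 303.

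**Figure D1:**
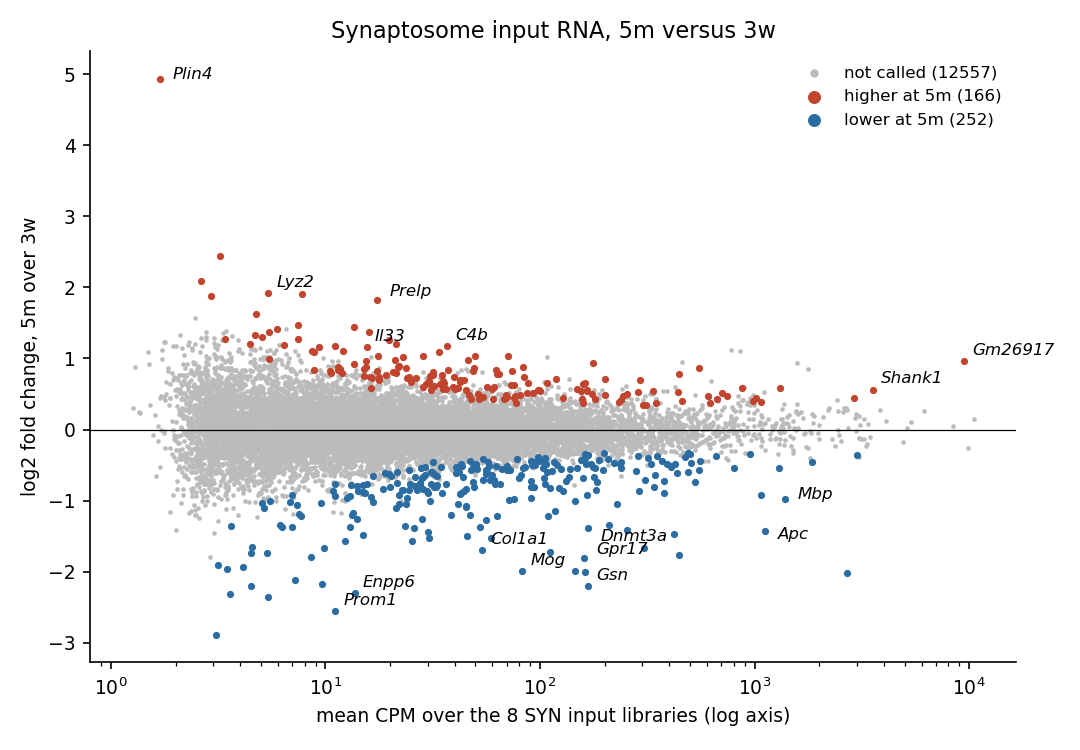
Each point is 1 of the 12975 genes tested, with its mean CPM over the 8 SYN input libraries on a log axis and its log2 fold change, 5m over 3w, from edgeR. The 166 genes called higher (red) and 252 called lower (blue) lie at all levels of expression, with Mbp and Apc among the abundant genes that were lower and Plin4, at 0 to 1 read per library at 3w, the highest fold change.

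Many of the transcripts lower at 5m are those of oligodendrocytes, the cells that wrap axons in myelin. Of 19 core myelin genes, 15 were lower and none was higher, against a background of 1.94% lower and 1.28% higher over all genes tested, and the median of the list was -1.21. The summed level of the list was 10497 to 13108 CPM at 3w and 4492 to 4720 CPM at 5m. Without mice 189 and 190, 13 of the 19 were lower. Mog, a glycoprotein on the outer face of the myelin sheath (chromosome 17, 37010743 to 37023398, minus strand), had 161, 133, 107 and 125 CPM at 3w and 30.8, 33.2, 30.9 and 37.9 CPM at 5m (log2 fold change -1.99, SE 0.14, adjusted p = 1.2e-07). Mal, a proteolipid of compact myelin, had 693, 736, 756 and 564 CPM at 3w and 208, 212, 210.5 and 182 CPM at 5m (log2 fold change -1.76, SE 0.12, adjusted p = 8.33e-08). Both genes showed separate ranges, with every 3w library above every 5m library, as the choice of leading genes required. Ugt8a, the enzyme that makes galactosylceramide, a lipid typical of myelin, had 256, 252, 296 and 233 CPM at 3w and 69.9, 78.8, 55.6 and 55.8 CPM at 5m (SE of the log2 fold change 0.13, adjusted p = 9.81e-08). Mag, a glycoprotein facing the axon, fell by 1.47 (SE 0.12) on the log2 scale, Cldn11, the tight junction protein of myelin, fell by 1.67 (SE 0.14), and Cnp, an enzyme of noncompact myelin, fell by 1.42 (SE 0.11). Mbp, the basic protein that compacts the sheath and whose messenger RNA travels to it, changed less, with 2258, 1776, 1530.2 and 1752 CPM at 3w and 940.5, 975, 865 and 955 CPM at 5m (log2 fold change -0.97, SE 0.12, adjusted p = 0.000106). Tspan2, Fa2h, Opalin, Nfasc, Mobp and Gjc3 were also lower, and Ermn, Myrf, Gpr37 and Cntn2 did not pass.

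The promoters of the lower core myelin genes were searched for ACAAAG and for its reverse complement CTTTGT, letters found in sites that SOX-family factors such as SOX10 are known to bind. RefSeq gave 15 promoters of 300 bases (GRCm38.p6) for 11 of the 15 genes, and 6 of the 15 (40%) held the motif on either strand. Over all 32851 promoters in the same collection the share was 18.7%. Below are 2 that hold it, written from 5′ to 3′ on the strand of the gene with the motif in capitals. They are those of Cnp (2′,3′-cyclic nucleotide phosphodiesterase, chr11:100574689-100574988, plus strand) and Mobp (a basic protein of myelin, chr9:120149492-120149791, plus strand).
Cnp: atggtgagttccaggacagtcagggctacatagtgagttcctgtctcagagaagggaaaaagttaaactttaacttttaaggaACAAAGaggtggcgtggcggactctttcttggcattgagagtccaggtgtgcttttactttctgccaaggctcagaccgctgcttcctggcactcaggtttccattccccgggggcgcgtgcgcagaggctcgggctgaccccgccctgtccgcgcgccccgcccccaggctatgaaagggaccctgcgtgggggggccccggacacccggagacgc
Mobp: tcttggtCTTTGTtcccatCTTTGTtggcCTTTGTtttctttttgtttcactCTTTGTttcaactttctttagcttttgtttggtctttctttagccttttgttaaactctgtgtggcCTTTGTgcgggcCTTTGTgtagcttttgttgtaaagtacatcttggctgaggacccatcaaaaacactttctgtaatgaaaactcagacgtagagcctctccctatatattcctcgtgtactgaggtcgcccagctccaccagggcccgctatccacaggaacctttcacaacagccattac
The Cnp window held the motif 1 time and the Mobp window 6 times, and the remaining matches were in windows of Opalin, Mag and Tspan2. A match is a match of letters and not a bound site, and a link between the motif and the age change was not tested.

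Transcripts of earlier stages of the lineage were also among the lower ones. Of 20 tested genes of newly formed oligodendrocytes, 12 were lower and none higher (median -0.98), and of 17 genes of precursors and the lineage, 5 were lower and none higher (median -0.32). Without mice 189 and 190 the counts were 9 and 2, and with 1 mouse left out the second count was 1 (without mouse 187) to 3. Enpp6, a phosphodiesterase that marks oligodendrocytes as they begin to myelinate, had 37.5, 22.2, 13.4 and 17.4 CPM at 3w and 5.23, 3.09, 5.15 and 5.34 CPM at 5m (log2 fold change -2.30, SE 0.31, adjusted p = 0.000256). Gpr17, a receptor of committed precursors, had 284, 252, 232 and 222 CPM at 3w and 79.0, 72.3, 63.3 and 69.9 CPM at 5m (log2 fold change -1.80, SE 0.14, adjusted p = 3.74e-07). Bcas1, an actin-associated protein of myelinating cells, had 292, 311, 337 and 254 CPM at 3w and 136, 136, 121 and 81.4 CPM at 5m (log2 fold change -1.34, SE 0.19, adjusted p = 0.000541). In all 3 genes the ranges were separate, and in absolute CPM the 3w libraries were spread more widely than the 5m libraries. Relative to its level, Bcas1 was spread more widely at 5m (81.4 to 136 CPM) than at 3w (254 to 337 CPM).

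Casr and Bmp4, on fewer reads, fell by 2.31 (SE 0.46) and 1.65 (SE 0.30) on the log2 scale. Sirt2, a deacetylase abundant in myelin, Fyn, a kinase of early myelination, Cemip2, Tmem163, Lims2, Rap2a and Itpr2 were also lower. Of the precursor genes, Neu4, Sox10, Olig1 and Pdgfra were lower besides Gpr17, with the call of Neu4 lost in 6 of 16 alternatives. Sox10, a transcription factor of the whole lineage, fell by 0.76 (SE 0.19), with ranges that overlapped; its call was lost in 8 of 18 alternatives (adjusted p up to 0.142), among them without mouse 187, 188, 190, 191, 192, 193 or 194. Olig1 fell by 0.68 (SE 0.16), and the call was lost in 6 of 18 alternatives (adjusted p up to 0.0825), among them without mouse 187, 188, 190, 191 or 193.

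Of 17 tested genes of late, mature oligodendrocytes, 3 were higher and 1 was lower, and the median was 0.16. Il33, an alarmin that mature oligodendrocytes and astrocytes make, had 12.6, 9.64, 8.05 and 6.72 CPM at 3w and 23.1, 22.4, 24.3 and 17.6 CPM at 5m (log2 fold change 1.16, SE 0.22, adjusted p = 0.00524). Plekhb1 rose by 0.49 ± 0.11 (SE) and Qdpr by 0.46 ± 0.12 (SE). The call of Il33 was lost without mice 189 and 190 (adjusted p = 0.0771), that of Plekhb1 in 5 of 18 alternatives (adjusted p up to 0.215), among them without mouse 188, 190, 193 or 194, and that of Qdpr in 12 of 18 alternatives (adjusted p up to 0.24), among them with any 1 of the 8 mice left out. Gsn, an actin-severing protein abundant in myelinating cells, went the other way with 349, 275, 213 and 264 CPM at 3w and 57.8, 61.4, 51.5 and 69.1 CPM at 5m (log2 fold change -2.20, SE 0.15, adjusted p = 8.33e-08), a range at 3w that lay wholly above that at 5m. At 18m the levels of Mog (27.9 to 35.6 CPM), Gsn (48.4 to 61.9 CPM) and Il33 (18.5 to 30.6 CPM) lay in or close to the 5m range.

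**Figure D2:**
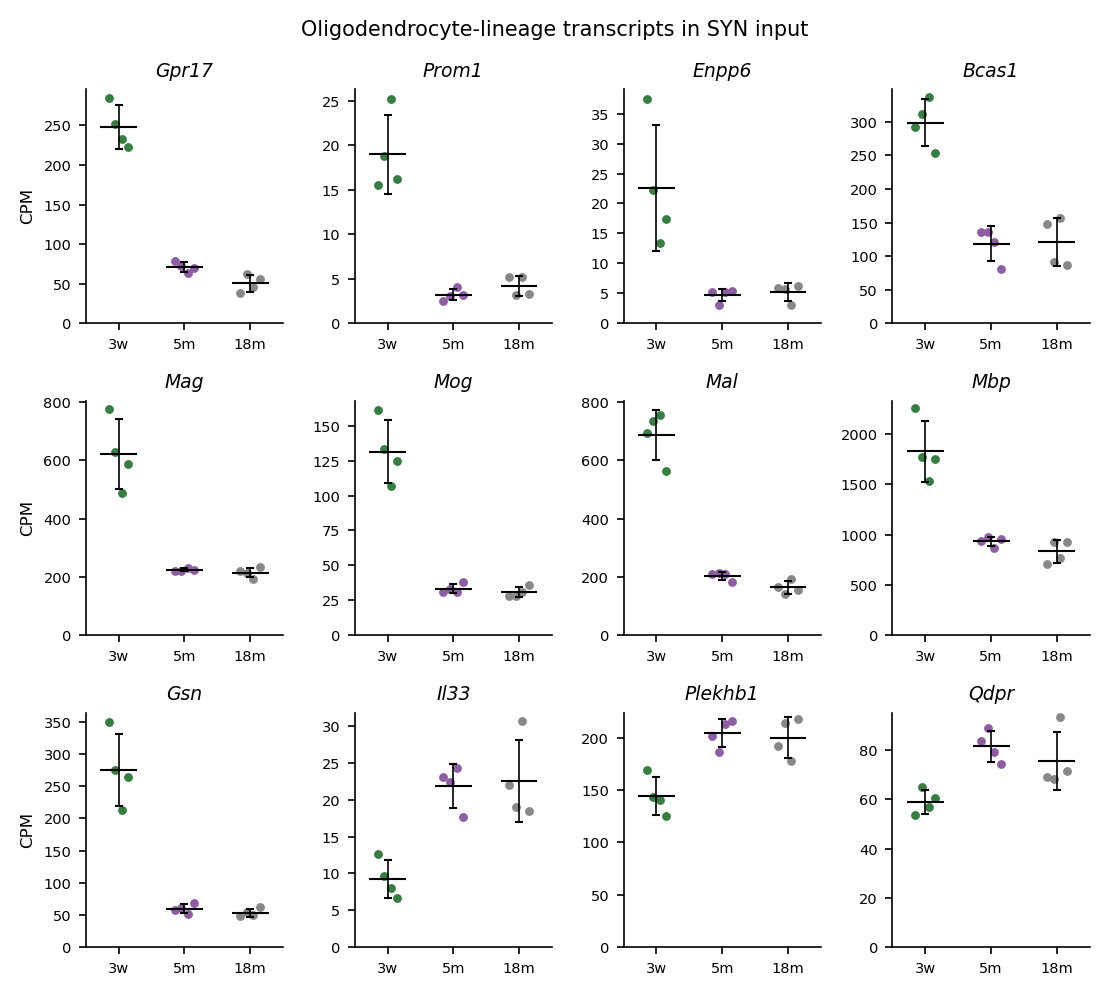
CPM of 12 oligodendrocyte-lineage genes in SYN input, 1 point per library, with the mean (line) and SD (bar) of 4 libraries at 3w (green), 5m (purple) and 18m (gray). From Gpr17 to Gsn the 3w libraries lie above the 5m libraries, while Il33, Plekhb1 and Qdpr lie below them.

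Some transcripts of growing neurons were lower at 5m. Of 25 genes of immature neurons and outgrowth, 7 were lower and none higher (median -0.36), and 2 were lower without mice 189 and 190. Marcksl1, which binds actin in growing processes, had 103, 86.5, 68.7 and 91.8 CPM at 3w and 33.3, 27.4, 33.9 and 27.5 CPM at 5m (log2 fold change -1.53, SE 0.15, adjusted p = 9.3e-06). Dpysl3, a collapsin response mediator that acts in growth cones, had 59.4, 49.1, 63.3 and 48.7 CPM at 3w and 28.4, 32.8, 27.2 and 28.8 CPM at 5m (log2 fold change -0.91, SE 0.13, adjusted p = 0.000397). Both showed separate ranges. Dcx, a microtubule-binding protein of migrating neurons, fell by 0.93 (SE 0.24), and its call was lost in 9 of 18 alternatives (adjusted p up to 0.327), among them without mouse 188, 189, 190, 191, 192, 193 or 194. Nrep fell by 1.20 (SE 0.22), with the call lost without mice 189 and 190 (adjusted p = 0.054). Marcks, Tubb3 and Tubb2b were the other lower members.

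Among 64 axon guidance ligands and receptors, 8 were lower and 2 higher (median -0.04). Plxnb3, a semaphorin receptor, had 79.3, 61.6, 62.8 and 58.2 CPM at 3w and 27.5, 29.0, 29.4 and 28.5 CPM at 5m (log2 fold change -1.21, SE 0.13, adjusted p = 2.56e-05), and Sema6a, a transmembrane semaphorin, had 201, 149, 158 and 141 CPM at 3w and 79.0, 66.1, 75.8 and 74.2 CPM at 5m (log2 fold change -1.14, SE 0.12, adjusted p = 1.49e-05). The libraries of the ages did not overlap for either gene. Sema3d, Epha3, Sema4d, Unc5b, Ephb1 and Sema5a were lower by less, and Efnb1 and Slit1 were higher. The calls of Sema3d and Epha3 were lost in 8 of 18 alternatives and 7 of 18 alternatives. Without mouse 191 or without mouse 192, 3 of the list were lower and 1 higher, and without mouse 187 4 were lower. None was higher without mouse 187, 188, 190 or 193, or without mice 189 and 190, where 5 were lower.

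Most called genes of the matrix around neurons were lower. Of 12 genes of the perineuronal net and matrix, 6 were lower and 1 higher (median -0.48), with 5 and 0 without mice 189 and 190. Adamts4, a protease that cleaves lecticans and is made by oligodendrocyte-lineage cells, had 189, 174, 166 and 153 CPM at 3w and 58.1, 56.4, 52.3 and 42.2 CPM at 5m (log2 fold change -1.71, SE 0.13, adjusted p = 2.38e-07). Hapln1, a link protein that ties lecticans to hyaluronan, had 32.0, 27.1, 30.1 and 28.6 CPM at 3w and 18.2, 15.8, 15.1 and 16.3 CPM at 5m (log2 fold change -0.84, SE 0.15, adjusted p = 0.00318). Hapln4, a link protein enriched at inhibitory synapses, moved the other way with 134, 122, 92.9 and 138 CPM at 3w and 197, 211, 245 and 281 CPM at 5m (log2 fold change 0.94, SE 0.19, adjusted p = 0.00993). The ages did not overlap for any of these 3 genes, but the call of Hapln4 was lost without mice 189 and 190 (adjusted p = 0.106). Tnc, a glycoprotein of the young matrix, fell by 1.25 (SE 0.26), a call lost without mouse 188 (adjusted p = 0.0583). The log2 fold changes of the proteoglycans Bcan and Ncan and of the glycoprotein Tnr were -0.56, -0.54 and -0.37.

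Among 29 collagen and basement membrane genes, 3 were lower and none higher: Col3a1, Col1a1 and Col1a2, the fibrillar collagens of meninges and vessel walls. Col1a1 had 91.7, 79.1, 61.2 and 96.9 CPM at 3w and 34.1, 17.4, 16.2 and 32.3 CPM at 5m (log2 fold change -1.69, SE 0.24, adjusted p = 0.000541), with mice 191 and 194 above mice 192 and 193 at 5m. Col3a1 fell by 2.11 (SE 0.30) and Col1a2 fell by 0.74 (SE 0.19), the latter lost in 12 of 18 alternatives (adjusted p up to 0.296), among them without mouse 187, 188, 190, 191, 192, 193 or 194. The summed level of the 10 tested genes of meninges, choroid plexus and ependyma was 208 to 319 CPM at 3w and 145 to 502 CPM at 5m. None of the 10 was called, also with DESeq2, and 1 had an unadjusted p under 0.05 (16.9% of all genes tested did). The part of such tissue in the collagen values was not tested. Prelp, a small leucine-rich proteoglycan of connective tissue, had 9.15, 7.40, 6.98 and 6.72 CPM at 3w and 23.1, 24.3, 29.8 and 32.3 CPM at 5m (log2 fold change 1.82, SE 0.24, adjusted p = 0.000256).

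Some microglial transcripts were higher at 5m. Microglia are the resident macrophages of the brain, which engulf synapses during pruning. Of 24 genes, 7 were higher and none lower (median 0.49), and their summed level was 424 to 510 CPM at 3w and 607 to 777 CPM at 5m. Ctss, a lysosomal protease, had 41.6, 47.1, 47.2 and 42.5 CPM at 3w and 91.2, 80.0, 72.1 and 76.3 CPM at 5m (log2 fold change 0.84, SE 0.11, adjusted p = 0.0002), and its ranges were separate. Lyz2, the macrophage lysozyme, had 1.83, 2.47, 1.61 and 3.36 CPM at 3w and 5.78, 4.64, 9.57 and 13.9 CPM at 5m (log2 fold change 1.92, SE 0.36, adjusted p = 0.00552). Tyrobp, an adaptor that signals for Trem2, had 9.15, 12.6, 12.3 and 9.52 CPM at 3w and 19.8, 15.8, 18.4 and 23.7 CPM at 5m (log2 fold change 0.85, SE 0.19, adjusted p = 0.0202), and Trem2, a lipid receptor, had 6.40, 7.40, 3.76 and 3.92 CPM at 3w and 12.7, 7.73, 14.4 and 14.7 CPM at 5m (log2 fold change 1.10, SE 0.29, adjusted p = 0.0467). For Trem2 the gap between the ages was small, from 7.40 to 7.73 CPM, and the call was lost in 9 of 17 alternatives (adjusted p up to 0.297), among them without mouse 187, 188, 189, 190, 191, 193 or 194. That of Tyrobp was lost in 6 of 18 alternatives (adjusted p up to 0.111), among them without mouse 187, 190, 191 or 194. Laptm5 and Tmem119 rose by 0.74 and 0.61, whereas the markers Cx3cr1, P2ry12 and Aif1 were not called, with log2 fold changes of 0.07, 0.22 and -0.06. With mouse 190 or mouse 194 left out, and without mice 189 and 190 together, 2 of the 24 genes were called.

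Of 16 genes of complement, major histocompatibility complex and interferon response, 4 were higher and none lower (median 0.66). C4b, a complement component that tags surfaces (chromosome 17, 34728380 to 34743882, minus strand), had 22.4, 24.0, 21.5 and 21.8 CPM at 3w and 57.3, 47.5, 47.5 and 51.5 CPM at 5m (log2 fold change 1.18, SE 0.12, adjusted p = 1.59e-05). Reads of C4b and of its near-identical neighbour C4a may be exchanged. At 18m C4b was at 88.8 to 109 CPM, above all 5m libraries. C1qb, a chain of the first complement component, had 48.2, 51.6, 48.8 and 39.7 CPM at 3w and 89.8, 84.6, 68.1 and 82.2 CPM at 5m (log2 fold change 0.78, SE 0.12, adjusted p = 0.00104). C1qa rose by 0.98 ± 0.19 (SE), a call lost without mice 189 and 190 (adjusted p = 0.0868), and Tapbp by 0.57 ± 0.14 (SE), lost in 8 of 18 alternatives (adjusted p up to 0.262), among them without mouse 188, 189, 190, 191, 193 or 194. Serpina3n, an acute-phase protease inhibitor of reactive astrocytes and oligodendrocytes, had 13.3, 12.8, 9.66 and 10.1 CPM at 3w and 19.3, 24.7, 25.4 and 43.0 CPM at 5m (log2 fold change 1.26, SE 0.26, adjusted p = 0.0122), with mouse 194 highest, and was not called after thinning or without mice 189 and 190 (adjusted p up to 0.139). Without mice 189 and 190, 2 members of the list were called.

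**Figure D3:**
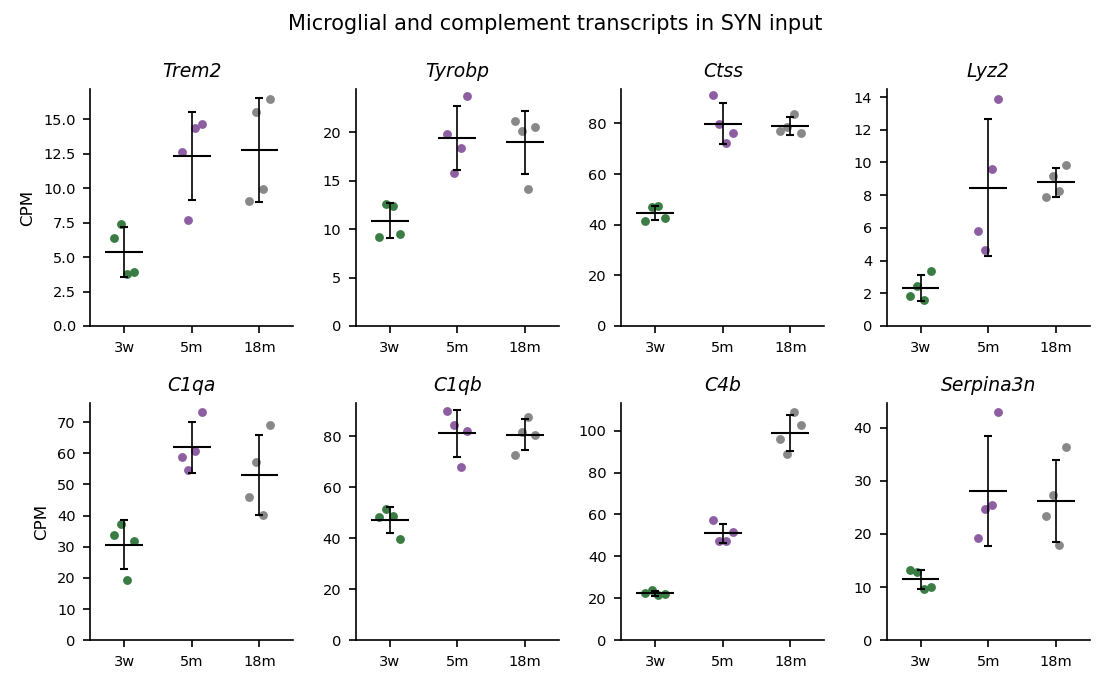
CPM of 4 microglial genes (upper row) and 3 complement genes with Serpina3n (lower row) in SYN input, 1 point per library, with the mean (line) and SD (bar) of 4 libraries per age. The 5m libraries lie above the 3w libraries in all 8 panels, and C4b is higher again at 18m.

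Few synaptic genes were called. No subunit of NMDA or AMPA receptors was called, nor any voltage-gated sodium channel, in edgeR's main test (6, 18 and 8 genes tested). Over all genes tested, 3.22% were called. At an unadjusted p under 0.05 there were 2, 1 and 2 genes, and 16.9% of all genes tested had such a p. DESeq2 called 1, 0 and 0 of them, and 603 of all 12975 genes. Over the alternatives, up to 2 NMDA and up to 1 AMPA receptor gene were called lower, and no sodium channel was called. All 6 NMDA receptor genes had a negative log2 fold change. Their summed level was 6039 to 7233 CPM at 3w and 5375 to 5692 CPM at 5m. Grin2b, the NMDA receptor subunit of young synapses, had 3059, 3474, 3918 and 3393 CPM at 3w and 2635, 2589.7, 2742 and 2641 CPM at 5m. All 5m libraries were below all 3w libraries, yet the difference missed the threshold (log2 fold change -0.38, SE 0.10, adjusted p = 0.0553). Over the 18 alternatives the adjusted p of Grin2b ranged from 0.00883 to 0.368. Grin2a, the subunit that joins receptors later in development, had a log2 fold change of -0.34 ± 0.12 (SE, adjusted p = 0.163). The log2 fold changes of the 18 AMPA receptor and auxiliary genes lay between -0.54 and 0.38.

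Of the presynaptic genes, Rims1, a scaffold that docks vesicles at the active zone, had 608, 657, 693 and 676 CPM at 3w and 383, 458, 379 and 364 CPM at 5m (log2 fold change -0.73, SE 0.10, adjusted p = 0.000222). Rims3, a short relative that modulates release, changed in the opposite direction with 134, 163, 146 and 167 CPM at 3w and 243, 292, 208 and 258 CPM at 5m (log2 fold change 0.72, SE 0.11, adjusted p = 0.00115). Syt2, the calcium sensor of fast-releasing terminals, had 122, 140.3, 141 and 135 CPM at 3w and 179, 211, 201 and 194 CPM at 5m (log2 fold change 0.54, SE 0.09, adjusted p = 0.00223). These 3 genes kept their calls in all 18 alternatives, and their ranges were separate. Among 37 SNARE and synaptic vesicle genes, 2 were lower, among them Stx1a (-0.54 ± 0.13, SE), a membrane protein of vesicle fusion. Its call was lost in 6 of 18 alternatives (adjusted p up to 0.23), among them without mouse 188, 190, 191, 193 or 194.

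Of 22 postsynaptic scaffold genes, Sipa1l1 and Shank1 were higher and Dlg2 was lower. Shank1, a scaffold whose messenger RNA is found in dendrites, had 3298, 2859, 2369.6 and 2993 CPM at 3w and 4357, 4639, 4027 and 3984 CPM at 5m (log2 fold change 0.56, SE 0.13, adjusted p = 0.0249), lost in 6 of 18 alternatives (adjusted p up to 0.251), among them without mouse 188, 189, 190, 191 or 192. The call of Dlg2 was lost in 6 of 18 alternatives (adjusted p up to 0.282), among them without mouse 189, 190, 191, 193 or 194. Sipa1l1 rose by 0.43 ± 0.09 (SE) and was not called without mice 189 and 190 (adjusted p = 0.0905). Among 62 potassium and HCN channels, 3 were higher, among them Kcna5 and Hcn2, and 1 was lower (Kcnv1), with calls lost in 9 of 17 alternatives for Kcna5, 11 of 18 alternatives for Hcn2 and 3 of 18 alternatives for Kcnv1. The chloride importer Slc12a2 fell by 0.67 (SE 0.15), lost in 6 of 18 alternatives (adjusted p up to 0.0879), among them without mouse 188, 189, 191, 193 or 194, and the exporter Slc12a5 had a log2 fold change of 0.22 ± 0.08 (SE, adjusted p = 0.182). Nptx1, a secreted pentraxin that clusters AMPA receptors, rose by 0.41 ± 0.08 (SE), and Ptprd, a receptor phosphatase that organizes synapses, fell by 0.47 (SE 0.12). Nptx1 was not called without mice 189 and 190 (adjusted p = 0.106), and Ptprd in 9 of 18 alternatives (adjusted p up to 0.176), among them without mouse 187, 188, 189, 191, 192, 193 or 194. Medians of the synaptic, receptor, channel and interneuron lists lay between -0.17 and 0.12.

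**Figure D4:**
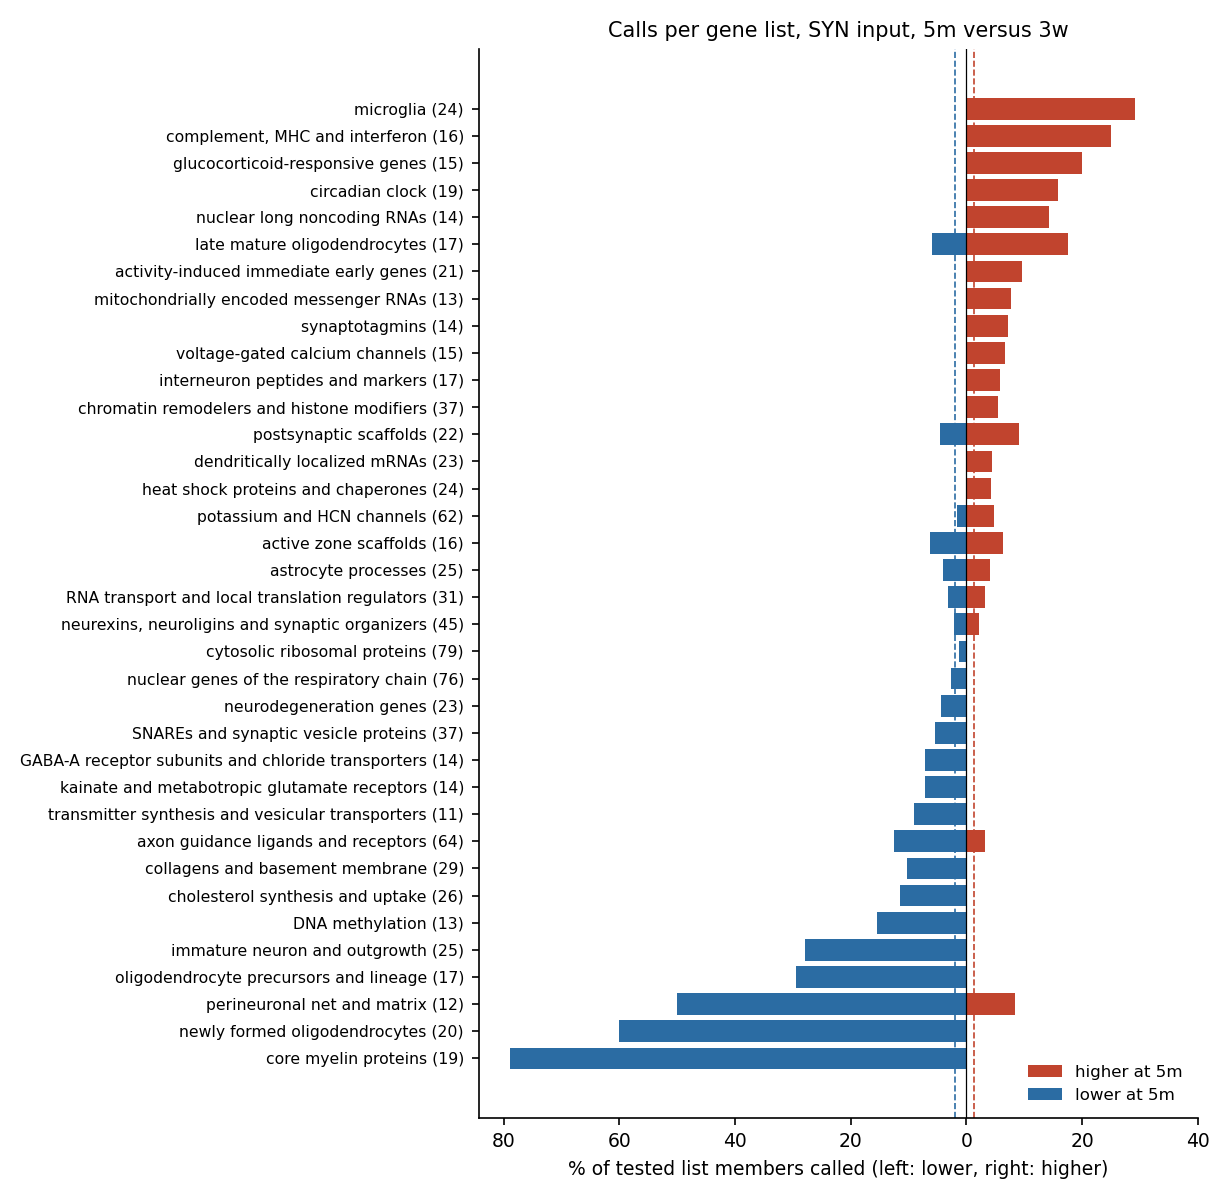
Share of the tested members of each gene list (number tested in parentheses) called higher (red, to the right) or lower (blue, to the left) at 5m in SYN input, for the 36 lists with at least 1 call. Dashed lines mark the share of all genes tested, 1.28% higher and 1.94% lower. Core myelin genes reach the largest lower share and microglial genes the largest higher share.

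Of 13 genes that write, erase or read DNA methylation, 2 were lower. Dnmt3a, the de novo methyltransferase that marks neuronal genomes after birth (chromosome 12, 3806007 to 3914443, plus strand), had 254, 226, 249.6 and 240.2 CPM at 3w and 97.5, 92.7, 99.0 and 82.4 CPM at 5m (log2 fold change -1.38, SE 0.10, adjusted p = 1.13e-07). Its ranges were far apart, and it was called in all 18 alternatives. Tet1, which oxidizes methylcytosine, had 22.6, 18.8, 27.4 and 20.2 CPM at 3w and 8.81, 10.0, 15.5 and 9.61 CPM at 5m (log2 fold change -1.02, SE 0.21, adjusted p = 0.0125), lost in 3 of 18 alternatives (adjusted p up to 0.0984), among them without mouse 191 or 194. No other gene of this list was called. Apc, a scaffold of the Wnt pathway and of microtubule ends, had 1689, 1517, 1753 and 1567 CPM at 3w and 609, 626, 605 and 592 CPM at 5m (log2 fold change -1.42, SE 0.08, adjusted p = 1.36e-08). Its ranges were far apart, and it was called in all its alternatives.

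Several of the leading genes belonged to none of the groups above. Rnf122, a ubiquitin ligase, had 20.1, 15.2, 16.1 and 11.2 CPM at 3w and 4.13, 3.86, 2.94 and 3.20 CPM at 5m (log2 fold change -2.17, SE 0.28, adjusted p = 0.000222), with no overlap between the ages. Wnt10a, a Wnt ligand, had 8.92, 7.62, 4.29 and 7.28 CPM at 3w and 16.2, 23.6, 15.1 and 25.3 CPM at 5m (log2 fold change 1.45, SE 0.30, adjusted p = 0.0117), a call lost without mice 189 and 190 (adjusted p = 0.118). Esyt1, which tethers the endoplasmic reticulum to the plasma membrane, had 7.55, 6.95, 7.51 and 8.40 CPM at 3w and 14.9, 19.3, 19.9 and 11.7 CPM at 5m (log2 fold change 1.11, SE 0.21, adjusted p = 0.00517) and was not called after thinning all libraries to the smallest one (adjusted p = 0.0612). The higher ranges lay wholly above the lower ones for both. Bok, a relative of Bcl2, rose by 1.09 ± 0.19, Cbx7, a Polycomb protein, by 1.04 ± 0.15, and Jade2, a subunit of histone acetyltransferases, by 1.03 ± 0.11 (SE). Spint2, a protease inhibitor, rose by 0.98 ± 0.25 (SE), lost in 9 of 18 alternatives (adjusted p up to 0.28), among them without mouse 188, 189, 190, 191, 192, 193 or 194. Pcdhgb7, a clustered protocadherin, and Cables1 rose by 1.37 ± 0.21 and 1.03 ± 0.17 (SE), but 61.3% and 34.2% of their exonic bases overlap other genes, so their reads are uncertain.

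Of 26 genes of cholesterol synthesis and uptake, 3 were lower and none higher (median -0.23). Hmgcs1, an early enzyme of the pathway, had 312, 347, 351 and 330.3 CPM at 3w and 232, 242, 238 and 181 CPM at 5m (log2 fold change -0.59, SE 0.14, adjusted p = 0.0269), with mouse 194 lowest and the ages separate. Its call was lost in 7 of 18 alternatives (adjusted p up to 0.18), among them without mouse 188, 189, 190, 191, 193 or 194. Cyp51, a demethylase of the pathway, fell by 0.56 (SE 0.11), lost in 2 of 18 alternatives. Without mice 189 and 190 none of the 3 was called.

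Clock genes and genes responsive to glucocorticoids included a few rises. Of 19 clock genes, 3 were higher and none lower (median 0.29). Per1, a repressor of the clock that glucocorticoids and neuronal activity also induce, had 55.1, 58.1, 58.5 and 63.3 CPM at 3w and 102, 103, 129.9 and 96.1 CPM at 5m (log2 fold change 0.88, SE 0.17, adjusted p = 0.00705). Bhlhe40 rose by 0.83 ± 0.16 (SE) and Per2 by 0.73 ± 0.16 (SE), the latter lost in 5 of 18 alternatives (adjusted p up to 0.0596), among them without mouse 187, 188, 193 or 194. Of 15 glucocorticoid-responsive genes, 3 were higher and none lower (median 0.45), Per1 among them. Tsc22d3, the leucine zipper protein induced by glucocorticoids, had 30.4, 36.3, 33.3 and 29.7 CPM at 3w and 55.6, 57.2, 44.9 and 52.8 CPM at 5m (log2 fold change 0.69, SE 0.12, adjusted p = 0.00349). At 18m it was at 28.5 to 34.5 CPM. Plin4, a coat protein of lipid droplets, was at 0 reads in all 3w libraries except mouse 187, which had 1 read, and at 2 to 21 reads at 5m. Per1 and Tsc22d3 were not called without mice 189 and 190 (adjusted p = 0.0608 and 0.0516), and Plin4 was lost in 3 of 15 alternatives (adjusted p up to 0.101), among them without mouse 188 or 194. Of 21 immediate early genes, Fosb and Fosl2 were higher, by 0.92 ± 0.23 and 0.48 ± 0.11 (SE), lost in 8 of 18 alternatives and 5 of 18 alternatives. The labels give no time of day for the dissections.

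Few genes of translation and respiration were called. Of 79 cytosolic ribosomal protein genes, 1 was lower (Rps2, -0.37 ± 0.10, SE) and none higher, with a median of 0.19. The log2 fold change was negative for 13 of the 79, and the summed level of the list was 7634 to 8002 CPM at 3w and 8081 to 8593 CPM at 5m, with no overlap. With all 48 libraries in one fit, 4 of 82 were higher and none lower. Of 76 nuclear genes of the respiratory chain, 2 were lower (Ndufa1 and Cox6c, median -0.05). Rps2 was lost in 9 of 18 alternatives (adjusted p up to 0.141), among them without mouse 187, 188, 190, 191, 193 or 194, Ndufa1 in 11 of 18 alternatives (adjusted p up to 0.205), among them with any 1 of the 8 mice left out, and Cox6c without mice 189 and 190 (adjusted p = 0.0829). Mitochondrially encoded genes took 2.73% ± 0.328 of the counts at 3w and 3.13% ± 0.598 at 5m (SD, n = 4 each), a difference smaller than the spread at 5m (p = 0.229, two-sided exact permutation over all 70 ways to split the mice, which cannot go below 0.0286). Gm26917, a noncoding gene, took 0.401% to 0.776% of the counts at 3w and 0.886% to 1.55% at 5m (log2 fold change 0.96, SE 0.21, adjusted p = 0.0172). Its call was lost in 5 of 18 alternatives (adjusted p up to 0.195), among them without mouse 190, 191 or 192. In all, 12 of the 48 gene lists had no call, with 22 of their 162 tested genes at an unadjusted p under 0.05 (16.9% of all genes tested were) and 1 called by DESeq2. These included translation factors, proteasome subunits, neurofilaments, neurotrophins with their receptors, endothelial cells, pericytes and red blood cells.

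Further lists held 1 or 2 calls each. Of 14 nuclear long noncoding RNAs, Lncpint (1.46 ± 0.24, SE) and Gm26917 were higher, and of 37 chromatin regulators, Kmt2a (0.66 ± 0.13) and Kdm6b (0.56 ± 0.13), a histone methylase and a demethylase, were higher. Of 31 regulators of RNA transport and local translation, Cpeb1, which binds polyadenylation elements, was higher (0.88 ± 0.18) and Ybx1, an RNA-packing protein, was lower (-0.50 ± 0.10). Of 25 astrocyte genes, Ndrg2 was higher (0.44 ± 0.08) and the water channel Aqp4 lower (-0.54 ± 0.14). Single calls were Cacna1h (0.64 ± 0.17) of 15 calcium channel genes, Nos1 (0.48 ± 0.12) of 17 interneuron genes, Dnajb1 (0.74 ± 0.20) of 24 chaperones and mt-Atp8 (1.19 ± 0.30) of 13 mitochondrially encoded messenger RNAs, all higher, and Ddc (-1.96 ± 0.48) of 11 transmitter genes and Neto1 (-0.40 ± 0.10) of 14 kainate and metabotropic receptor genes, both lower. Of 23 neurodegeneration genes 1 was lower, and Shank1 was the single call among 23 dendritically localized messenger RNAs. Lncpint, Kmt2a and Ybx1 were called in every alternative, whereas the calls were lost in 8 of 18 alternatives for Kdm6b, 3 of 18 alternatives for Cpeb1, 1 of 18 alternatives for Ndrg2, 7 of 18 alternatives for Aqp4, 8 of 18 alternatives for Cacna1h, 10 of 18 alternatives for Nos1, 10 of 18 alternatives for Dnajb1, 11 of 16 alternatives for mt-Atp8, 8 of 16 alternatives for Ddc and 11 of 18 alternatives for Neto1.

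The same ages were compared in TH input of the same mice, which holds the RNA of the whole cortex. In TH (9699909 to 13225435 counted reads per library) 2136 of 18078 genes (11.8%) were called, 861 higher (4.76%) and 1275 lower (7.05%). That split turned with library size in place of TMM, to 1411 higher and 972 lower. The TH library of mouse 191 held more meningeal, choroid plexus and ependymal RNA (1606 CPM over the list, against 159 to 248 CPM in the other 5m libraries), and without mouse 191 the count was 2228. A test of the difference between both age changes, over 24 libraries, called 4 of 17860 genes (0.0224%), with 1437 genes at an unadjusted p under 0.05 and 32 called by DESeq2, 16 in each direction. Without a filter on low counts the test called 36 genes, with a more positive age change in SYN for 23 of them and a more negative one for 13. With the mouse as a replicate block the count was 8, 6 of them lower, and Xkr6 was no longer among them.

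The 4 genes had a more negative age change in SYN than in TH. Prom1, a cholesterol-binding membrane protein of glia and ependyma (chromosome 5, 43993620 to 44102032, minus strand), had 15.5, 18.8, 25.2 and 16.2 CPM at 3w and 2.48, 3.09, 4.05 and 3.20 CPM at 5m in SYN (log2 fold change -2.55, SE 0.26, adjusted p = 1.38e-05). Its log2 fold change in TH was -0.76 ± 0.11 (SE), and the difference was -1.76 ± 0.26 (adjusted p = 0.00259). Dnmt3a fell by 0.51 (SE 0.06) in TH, a difference of -0.84 ± 0.10 (adjusted p = 0.000144). Apc fell by 0.85 (SE 0.06) in TH, a difference of -0.55 ± 0.10 (adjusted p = 0.0286). Xkr6, a scramblase-related membrane protein, had 20.1, 17.3, 21.5 and 21.8 CPM at 3w and 12.4, 9.27, 8.46 and 12.0 CPM at 5m in SYN (log2 fold change -0.90, SE 0.18, adjusted p = 0.0109) and a log2 fold change of 0.08 ± 0.06 (SE) in TH, a difference of -0.93 ± 0.17 (adjusted p = 0.0286). Prom1 and Dnmt3a were called with every single mouse left out, whereas Xkr6 and Apc were not.

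For the core myelin list the median was -1.21 in SYN and -1.22 in TH, where 17 of 19 were lower (7.05% of all genes tested in TH were lower). Newly formed oligodendrocyte genes had medians of -0.98 in SYN and -0.56 in TH, and genes of immature neurons -0.36 and -0.32. Gene by gene, the age change in SYN minus that in TH had a median of -0.15 for core myelin genes (4 of 19 positive). That median was -0.08 for newly formed oligodendrocyte genes (7 of 20 positive) and 0.04 for genes of immature neurons (16 of 25 positive). Of 24 microglial genes, 1 was higher and 3 were lower in TH, where 4.76% of all genes tested were higher and 7.05% lower. The median of these microglial genes was 0.49 in SYN and -0.10 in TH. The difference was positive for 21 of the 24 and had an unadjusted p under 0.05 for 16, all positive, against 5.06% of all genes tested, but no gene passed after adjustment in edgeR (lowest adjusted p = 0.123, Ctss) and 1 did with DESeq2. Trem2 had log2 fold changes of 1.10 ± 0.29 in SYN and -0.13 ± 0.11 in TH (SE), a difference of 1.24 ± 0.31 (adjusted p = 0.271).

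**Figure D5:**
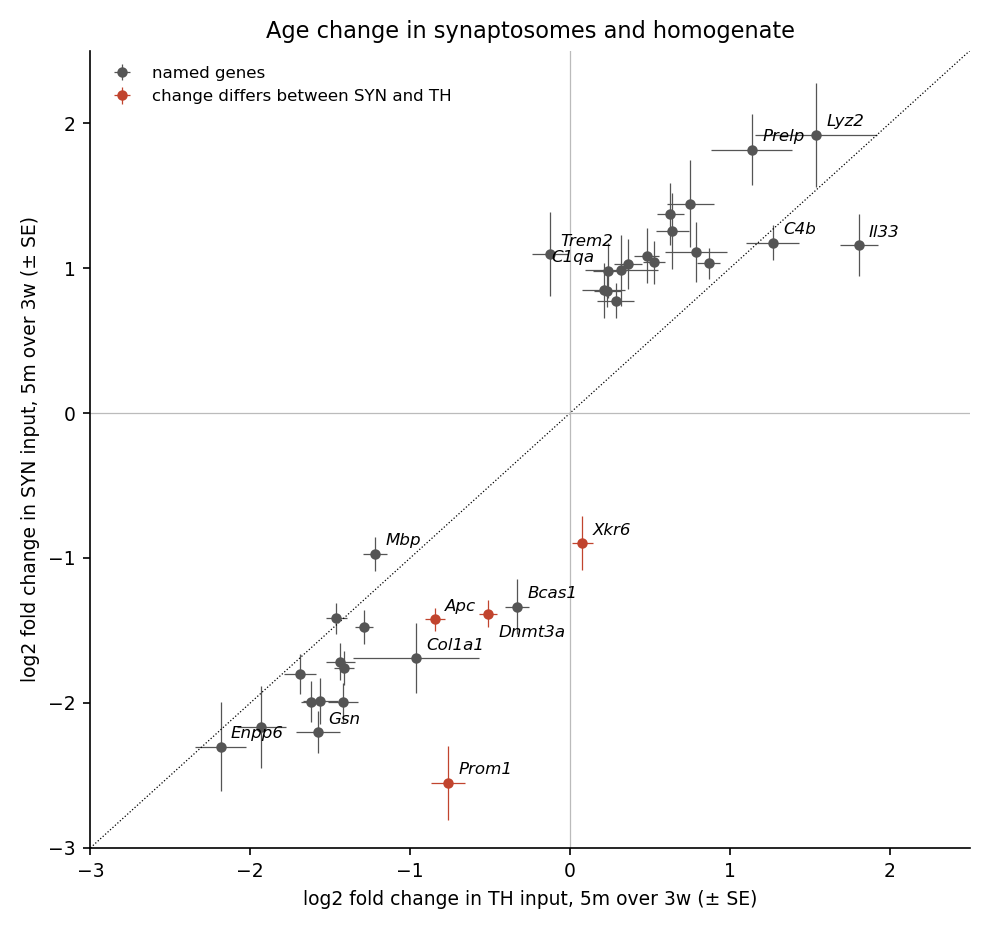
Log2 fold change, 5m over 3w, in TH input (horizontal) and in SYN input (vertical) for leading genes, the 4 genes whose change differed between the fractions (red), and other myelin, microglial and complement genes described above, with bars of 1 SE. The dotted line marks equal change. Prom1, Dnmt3a, Apc and Xkr6 lie below it, and Trem2 lies above it with a TH change near 0.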

How the data were processed

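RNA was sequenced from the SYN fraction and TH of mouse cortex, before a sucrose cushion (input) and from the ribosome pellet after it. Per the labels and the study's methods, libraries were made with rRNA depletion and molecular identifiers and sequenced single-end in more than one run, and reads were demultiplexed with bcl2fastq (2.20.0.422), aligned to GRCm38 with TopHat2 (2.1) and counted per gene with featureCounts without strand. The authors deposited 1 table of raw counts for 48 libraries. Whether identifiers were used to remove duplicates, and which library was in which run, is not given in the sources used here. Without strand, a gene and its antisense partner cannot be told apart.

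Counts were scaled by TMM, filtered with filterByExpr and tested with the quasi-likelihood test of edgeR (4.0.16, R 4.3.3) over the 12 SYN input libraries of 3 ages, with Benjamini-Hochberg adjustment at 0.05 over all genes tested. CPM values are counts scaled to the size of a library after TMM, and not to its counted reads alone. The difference between SYN and TH was an interaction term over 24 input libraries. SYN and TH libraries with the same number came from the same mouse, and their deviations from group means correlated at -0.012 to 0.178 (4 of 8 pairs above 0.1). Alternatives were DESeq2 (1.42.0), library size, other filters, GC and length correction, only the compared groups, all 48 libraries, no mitochondrial genes, thinning, a mouse block and each mouse left out. The methods were tested on simulated data. IDs were named from GENCODE M21 (48144 of 48526 matched); the rest held 0.0596% of the counts.

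The 12 higher and 12 lower leading genes had the largest fold changes among called genes with no overlap between the ages. Each also had a mean count of at least 50 in the age group where it was higher. Up to 4 called members of each list were described, and Mag, Cnp, Mbp, Mobp, Cldn11, Bcas1, Grin2a and Grin2b, with the other list members named in passing, were chosen after their values were seen. The comparison and all gene lists were chosen with earlier results of these data known. Each library came from 1 mouse. Depth limits the precision of low genes, and the 18m libraries are given as levels beside the comparison. Some genes of the lists and rules are not reported here, while the counts over lists include them.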

Additional observations from a re-analysis of the deposited data

Results flagged for a closer look

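The difference between the age changes in SYN and TH passed the interaction test for Prom1 (-1.76 on the log2 scale), Xkr6 (-0.93), Dnmt3a (-0.84) and Apc (-0.55).

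Of 214 groups of 4 libraries tested for a library far from the others, 4 had one, where chance alone gives about 1 in 20. Plin4 was at 0.229 CPM in mouse 187 at 3w and at 0 in the other 3 mice. Enpp6 was at 3.09 CPM in mouse 192 at 5m, against 5.15 to 5.34 CPM. Mal was at 182 CPM in mouse 194, against 208 to 212 CPM, and Hmgcs1 at 181 CPM in mouse 194, against 232 to 242 CPM. The cause was not tested.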

How the results depend on the processing

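The count of 418 genes in SYN was 417 with library size, 404 with at least 10 counts in every library and 418 without mitochondrial genes. It was 650 (287 higher) without a filter on low counts, 632 (257 higher) with GC and length correction, 603 (251 higher, 352 lower) with DESeq2, 732 (336 higher, 396 lower) with only the compared groups in the fit, 895 (464 higher, 431 lower, thus 51.8% higher against 39.7%) with all 48 libraries, and 303 after thinning. Without the libraries of mice 189 and 190, chosen after seeing the data, it was 152 (36 higher, 116 lower). With 1 mouse left out it was 224 to 299, with 73 to 114 higher and 147 to 189 lower. No called gene changed direction under any of these. Apart from fewer samples or genes in some settings, the cause was not tested.

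The count of 4 genes whose change differed between SYN and TH (all more negative in SYN) was 32 with DESeq2 (16 more positive in SYN), 7 with library size, 36 without a filter (23 more positive), 8 with only the compared groups, 8 with the mouse as a replicate block, and 2 to 4 with 1 mouse left out. The TH count was 1501 to 2228 with 1 mouse left out and 1972 to 2581 otherwise. The difference in mitochondrial share was 0.176 to 0.596 percentage points with 1 mouse left out. Low-count genes such as Plin4 are limited by depth.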
